A study of Mus musculus with 2 samples.

Results

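TGF-beta and activin signalling was represented by 9 genes: the ligand genes Tgfb1 and Inhba, the receptor genes Tgfbr1, Tgfbr2 and Eng, the signal transducer genes Smad3, Smad4 and Smad7, and the target gene Tgfbi. Members were taken by gene name, and every probe set annotated to one of them was used. Of the 9 genes, 8 had a probe set in the annotation of the array and together held 10 probe sets, out of 8220 named genes in all. Smad4 was not analysed here. The RNA came from peritoneal macrophages of mouse littermates of matched age, with 1 array from Pac1-/- cells and 1 array from wild-type (Pac1+/+) cells. Both groups had been injected with 2 ml of 3% thioglycollate, a sterile irritant, 4 days before lavage, and both were exposed to 100 ng/ml lipopolysaccharide (LPS), a bacterial cell-wall component that activates Toll-like receptor 4, for 6 hours. Pac1 is an older name of Dusp2, a dual-specificity phosphatase of MAP kinases; the sources used here do not give how the allele was made, the age of the mice or how many mice were behind an array. With 1 array per genotype there was no replicate check, so sizes are given without p-values, and fewer cells of a type and less RNA per cell cannot be told apart.

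TGF-beta is secreted in a latent form and, once released, binds the type II receptor encoded by Tgfbr2, which activates the type I receptor encoded by Tgfbr1. That receptor phosphorylates the transducers Smad2 and Smad3, which enter the nucleus with Smad4, while Smad7 blocks the receptor as a feedback inhibitor. Activin A, a dimer of the Inhba product, uses its own receptors and the same Smads. In macrophages TGF-beta is known for restraining inflammatory activation, and LPS is known to induce activin A.

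The promoters of Tgfb1, Inhba and Eng are shown because these are the ligand genes and the single receptor gene among the members with measurable signal. Each is 300 bases on the plus strand of GRCm38.p6, from 250 before the RefSeq start to 50 after it, at chr7:25686752-25687051 for Tgfb1, chr13:16011601-16011900 for Inhba and chr2:32646345-32646644 for Eng. RefSeq's promoter table held 7 of the 9 members. Capitals mark matches, on either strand, to the motifs spelled out after the sequences.
Tgfb1: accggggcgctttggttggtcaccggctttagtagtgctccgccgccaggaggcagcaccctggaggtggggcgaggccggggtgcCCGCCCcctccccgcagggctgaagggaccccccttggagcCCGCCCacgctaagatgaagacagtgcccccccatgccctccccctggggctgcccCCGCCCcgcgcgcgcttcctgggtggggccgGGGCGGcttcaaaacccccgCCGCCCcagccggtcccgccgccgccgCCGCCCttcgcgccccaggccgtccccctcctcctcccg
Inhba: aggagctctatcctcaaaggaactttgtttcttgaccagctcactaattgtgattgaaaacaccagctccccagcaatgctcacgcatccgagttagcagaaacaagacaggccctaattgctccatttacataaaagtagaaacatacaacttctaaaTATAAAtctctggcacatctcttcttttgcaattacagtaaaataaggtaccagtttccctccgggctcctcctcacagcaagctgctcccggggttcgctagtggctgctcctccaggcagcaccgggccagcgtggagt
Eng: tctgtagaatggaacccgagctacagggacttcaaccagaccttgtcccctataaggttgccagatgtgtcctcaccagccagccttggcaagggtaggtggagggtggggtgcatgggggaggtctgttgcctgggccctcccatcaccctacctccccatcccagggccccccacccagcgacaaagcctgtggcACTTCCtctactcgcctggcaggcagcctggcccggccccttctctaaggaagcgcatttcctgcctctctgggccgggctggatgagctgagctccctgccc
The Tgfb1 window was 77% G and C, against a median of 52.7% and a 90th percentile of 69.7% over the 32851 promoter windows of the table. It held 6 GC boxes (GGGCGG), a motif with at least 1 match in 35.7% of those windows. The Inhba window was 47.7% G and C, with 1 TATA-box match (TATAAA), found in 13.6% of windows. The Eng window was 63.3% G and C and held 1 match to the ETS letters GGAAGT, found in 23.8% of windows. The AP-1 letters TGANTCA, present in 7.81% of windows, were in none of the 3 windows. The Smad motif with the letters CAGACA, present in 21.0% of windows, was in none of them either, and no marked matches overlapped. These matches are letters in a window and were not tested as binding sites.

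On the knockout and the wild-type array, the TGF-beta and activin genes that could be measured were present at similar levels, and none was 2-fold apart. Eng, Inhba and Tgfbi were at 100.45%, 99.2% and 98.5% of the wild-type signal, and Tgfb1 and the inhibitory Smad7 had lower signals in the knockout, at 81.5% and 75.1% of it. Signals of 5 of the 8 genes on the array lay above a floor of 36.4, the median signal of the pooled arrays, and those 5 were above it on both arrays. The signals of Tgfbr1, Tgfbr2 and Smad3 were below the floor on both arrays. All signals are MAS5 intensities in arbitrary units, and levels were not compared between member genes. The summed signals of cell type markers given below add up all markers of a list on the array, those below the floor included. They add up different probe sets, so brighter probe sets weigh more in them.

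Tgfb1, the gene of the main TGF-beta ligand of immune cells, had a signal of 578 in Pac1 knockout cells and 710 in wild-type cells, from its only probe set. This gave a log2 ratio (knockout over wild type) of -0.30. Among the 941 genes with a mean signal between 300 and 1000 and both signals above the floor, 24.3% had ratios at least as far from 0, and the 5th and 95th percentiles of their log2 ratios were -0.48 and 0.40. The Tgfb1 difference therefore lay inside the spread of genes of similar signal.

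Inhba, which encodes the subunit of activin A, had 90.4 in knockout cells and 91.1 in wild-type cells. Its log2 ratio was -0.01, and its only probe set was dim. Of 1497 genes with a mean signal between the floor and 100, 97.2% had ratios at least as far from 0. The ligand genes thus stood at a slightly lower signal in the knockout for Tgfb1 and at nearly equal signals for Inhba.

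Eng encodes endoglin, a co-receptor for TGF-beta family ligands that is best known from endothelium and, in human, is also found on activated monocytes and macrophages. Its brighter probe set was at 2121 in knockout cells and 2111 in wild-type cells, a log2 ratio of 0.01. Of 492 genes with a mean signal over 1000, 96.3% had ratios at least as far from 0. The other Eng probe set was dim, at 26.8 in the knockout, below the floor, and 42.9 in the wild type, just above it, at least 1.18-fold lower. The probe sets of this gene thus differed in whether a signal was measured in both genotypes.

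Most endothelial markers were not measurable beside the Eng signal. Of 8 endothelial markers on the array, 6 (Cdh5, Kdr, Pecam1, Tek, Tie1 and Cldn5) were below the floor on both arrays, and the summed signal of the 8 was 292 in knockout cells and 336 in wild-type cells. Vwf, the gene of von Willebrand factor, was the exception with 164 in knockout cells and 217 in wild-type cells, while Flt1 was at 39.8 in the knockout and below the floor in the wild type. Macrophage markers were above the floor on both arrays for 10 of 10 genes, with 8 ratios above 0, a median log2 ratio of 0.24 and a summed signal of 27581 in knockout cells and 24380 in wild-type cells; the scavenger receptor gene Msr1 (1.59-fold lower) and the mannose receptor gene Mrc1 (1.22-fold lower) were the 2 below 0. Itgam, the gene of the Mac-1 subunit by which the cells were checked to be 92 to 95% positive, was at 356 in knockout cells and 301 in wild-type cells.

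The signalling receptor genes Tgfbr1 and Tgfbr2 each had 1 probe set. Tgfbr1 was at 3.4 in knockout cells and 7.3 in wild-type cells. Tgfbr2 was at 2.8 in knockout cells and 7.7 in wild-type cells. Smad3, the receptor-activated transducer, was at 8.6 in knockout cells and 3.4 in wild-type cells, also from 1 probe set. All 6 of these signals were far below the floor, so no ratio is given for these genes, and the values do not show that the transcripts were absent.

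Smad7 was at 55.9 in knockout cells and 74.4 in wild-type cells, a log2 ratio of -0.41 and the lowest among the members. Both signals were dim, and 31.4% of the 1497 genes between the floor and 100 differed as much or more. Tgfbi, the gene of a secreted matrix protein named for its induction by TGF-beta, was at 238 in knockout cells and 242 in wild-type cells in its brighter probe set, a log2 ratio of -0.02. Of 1470 genes with a mean signal between 100 and 300, 93.9% had ratios at least as far from 0. Its other probe set, with a suffix for possible cross-hybridisation, was at 57.0 in knockout cells and 74.2 in wild-type cells, a log2 ratio of -0.38. The probe sets of Tgfbi thus differed by more than a median disagreement of 0.30 (log2) and by less than its 95th percentile of 1.01. That disagreement is between the 2 brightest probe sets of the 520 genes that had more than 1 above the floor on both arrays.

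**Figure D1:**
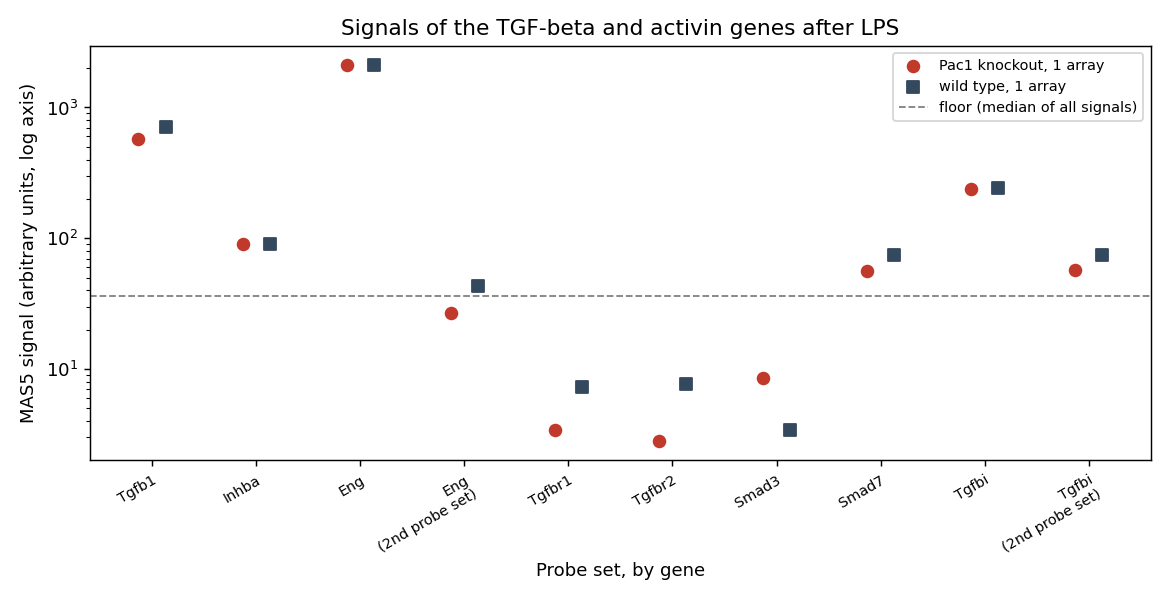
MAS5 signals (log axis, arbitrary units) of the 10 probe sets of the members, with Pac1 knockout as circles and wild type as squares, 1 array each, and the floor of 36.4 as a dashed line. Both signals lie above the floor for Tgfb1, Inhba, Smad7, both Tgfbi probe sets and the brighter Eng probe set, the dimmer Eng probe set lies below it in the knockout, and Tgfbr1, Tgfbr2 and Smad3 lie below it.

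Among the 5 members with measurable signals, 0 were 2-fold higher and 0 were 2-fold lower in the knockout. Of all 5119 genes with at least 1 signal above the floor, 1.23% were 2-fold or more higher and 1.07% were 2-fold or more lower, so a count of 0 among 5 is near the background. Ratios were below 0 for 4 of the 5 members, against 47.8% of the 5119 genes. The median log2 ratio was -0.02 over the members and 0.02 over all 5119 genes. With a common median in place of a common trimmed mean, the median over all genes moved by -0.11, and the 2-fold counts became 43 higher and 86 lower, against 63 and 55. Under that scaling Eng turned to a log2 ratio of -0.11, Inhba stood at -0.13, Tgfbi at -0.14, Tgfb1 at -0.41 and Smad7 at -0.53, and again 0 members were 2-fold apart.

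**Figure D2:**
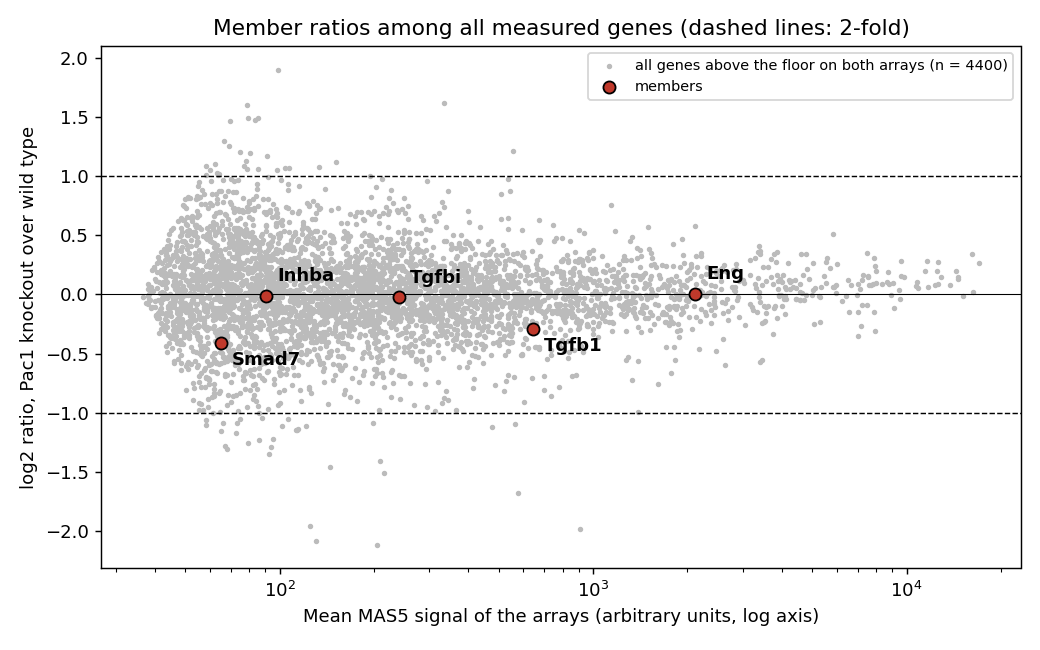
The log2 ratio of Pac1 knockout over wild type against the mean MAS5 signal (log axis) for the 4400 genes above the floor on both arrays, in grey, with the 5 measurable members in red and 2-fold marked by dashed lines. Eng, Inhba and Tgfbi lie close to 0, and Tgfb1 (-0.30) and Smad7 (-0.41) lie below 0 and within the grey cloud.

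Other genes of the pathway were followed through a list of 91 genes by role, of which 71 were on the array and 47 had a measurable signal. None of the 47 was 2-fold higher and none was 2-fold lower. Of all 5119 genes, 1.23% were 2-fold or more higher and 1.07% lower, so these counts of 0 are near the background. The ratios of the 47 were above 0 for 23 genes, below 0 for 23 and at 0 for 1. Their median log2 ratio was 0, against 0.02 for all 5119 genes. At a 1.5-fold limit 2 genes were higher (Acvr1b and Id3) and 1 was lower (Mmp9), against 6.37% higher and 5.72% lower of all genes.

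The measurable genes listed for the steps between Tgfb1 transcript and active ligand were under 2-fold apart. Ltbp3, Lrrc32, Thbs1, Itgb6 and Itgb8 of these steps were not on the array, and Ltbp1 was below the floor on both arrays. Furin, the protease that cuts the TGF-beta precursor, was at 746 in knockout cells and 838 in wild-type cells, a log2 ratio of -0.17. Ltbp2 was listed here by its membership of the family of latent TGF-beta binding proteins, and it was also listed as a known target. It was dim at 52.9 in knockout cells and 56.1 in wild-type cells. Whether its product holds latent TGF-beta was not examined here. Ltbp4 of the same family was at 46.0 in knockout cells and below the floor at 35.1 in wild-type cells, at least 1.26-fold higher. Itgav, the integrin chain of receptors that release TGF-beta from its latent complex, was at 4391 in knockout cells and 4503 in wild-type cells, from a probe set with a suffix for possible cross-hybridisation; its other 2 probe sets were each above the floor on 1 array, in opposite genotypes. Mmp9, a gelatinase able to release latent TGF-beta, was at 51.3 in knockout cells and 82.6 in wild-type cells, a log2 ratio of -0.69 and the lowest of the list.

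Among the other receptors, Acvrl1, the type I receptor that partners endoglin in endothelium, was at 464 in knockout cells and 347 in wild-type cells, a log2 ratio of 0.42. Another Acvrl1 probe set was at 195 in knockout cells and 140 in wild-type cells (0.48), and the dimmest one was at 74.2 in knockout cells and 78.3 in wild-type cells (-0.08), and the brighter 2 carry suffixes of probe sets that are not plain unique designs. For activin, the type I receptor gene Acvr1b was at 58.3 in the knockout and below the floor at 33.9 in the wild type, at least 1.60-fold higher. The activin type II receptor gene Acvr2a was at 49.7 in knockout cells and 57.7 in wild-type cells. Of the 9 other receptor genes on the array, 5 were below the floor on both arrays.

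Smad2, which shares the receptor-activated step with Smad3, was measurable at 582 in knockout cells and 541 in wild-type cells, a log2 ratio of 0.11. Smad6, the inhibitory Smad closest in role to Smad7, was dim at 40.9 in knockout cells and 52.3 in wild-type cells (-0.35). Both inhibitory Smads thus had lower signals in the knockout, near the floor, and neither was 1.5-fold apart.

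Of the 13 measurable genes listed as known targets, 6 had ratios above 0 and 7 below 0, with a median log2 ratio of -0.08. Skil and Ltbp2, both below 0, were also listed under another role and count in both groups, Skil among the inhibitors given below. Id3, an inhibitor of helix-loop-helix factors, was highest at 99.0 in knockout cells and 65.7 in wild-type cells, a log2 ratio of 0.59. Tsc22d1, named for its stimulation by TGF-beta, was lowest at 120 in knockout cells and 167 in wild-type cells (-0.49). The 11 measurable inhibitors and binding proteins had a median of -0.03. They ran from Fstl1, of the follistatin-like family, at 173 in knockout cells and 207 in wild-type cells (-0.26), to the matrix proteoglycan gene Dcn, whose product binds TGF-beta, at 318 in knockout cells and 247 in wild-type cells (0.37). The 3 transcriptional partners measured were all below 0, between the coactivator gene Crebbp (-0.45) and Sp1 (-0.24). The 3 measured genes of the non-Smad branch were all above 0, between the ubiquitin ligase gene Traf6 (0.07) and the small GTPase gene Rhoa (0.25). Of all 5119 measurable genes, 47.8% had ratios below 0, so groups of 3 are too small to be read as a direction. Another Traf6 probe set was at 61.6 in knockout cells and below the floor at 26.6 in wild-type cells, at least 1.69-fold higher, and the other Rhoa probe sets had log2 ratios of 0.35 and -0.04. Bone morphogenetic protein genes were dim, with Bmp2 at 0.18 and Bmp4 at -0.25, both from probe sets with suffixes for possible cross-hybridisation. The other Bmp2 probe set and the other Bmp4 probe set were below the floor on both arrays. The probe set of Crebbp also carries a suffix of probe sets that are not plain unique designs.

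**Figure D3:**
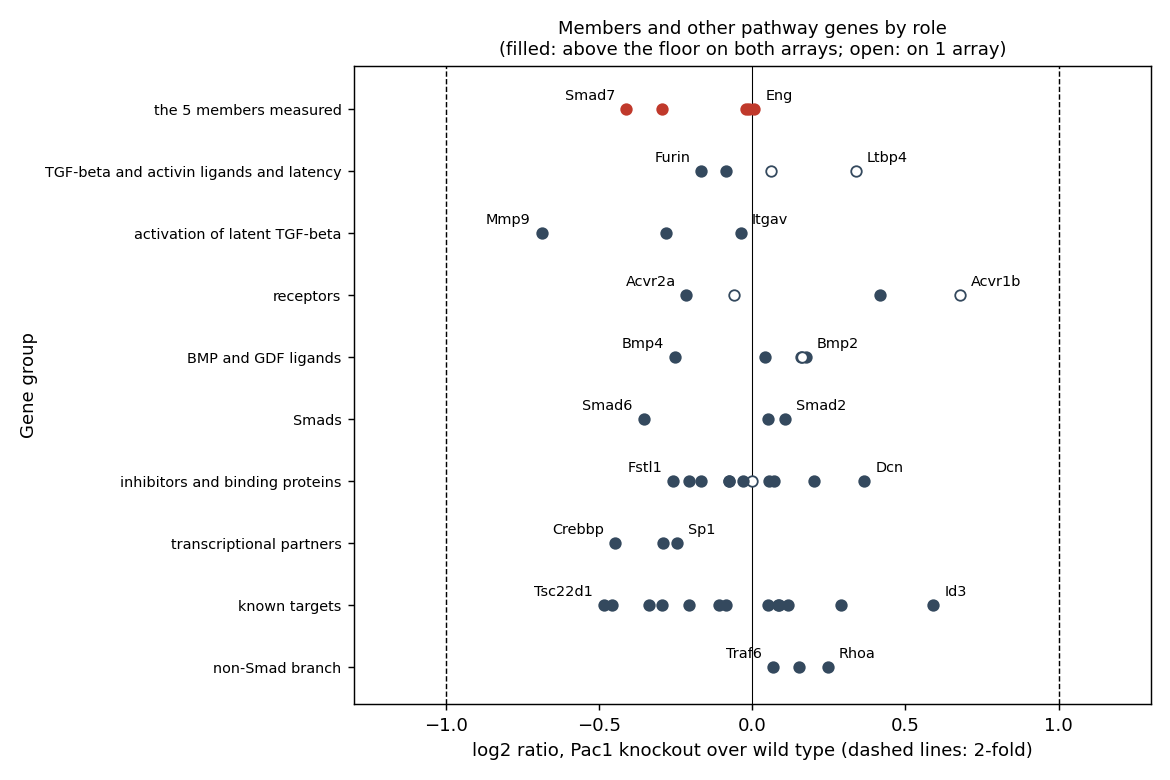
The log2 ratio of Pac1 knockout over wild type for the 5 measurable members (red, top row) and the measurable genes of the pathway list by role (dark), with 2-fold as dashed lines; open circles are genes above the floor on 1 array, and the lowest and highest gene of each row is named. No point reaches 2-fold, and the widest ratios are those of Mmp9 (-0.69), Acvr1b (0.68) and Id3 (0.59).

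Markers of other cells that carry these transcripts were examined beside the members. Stromal and mesothelial markers, which include Dcn and the collagen genes of the target list, were measurable for 8 of 13 genes. The median log2 ratio of these 8 was -0.26, and the summed signal of all 13 was 1418 in knockout cells and 1735 in wild-type cells. Ratios were below 0 for 5 of the 8, with Acta2 2.55-fold lower and Pdgfra at 236 in knockout cells and 432 in wild-type cells. The 3 above 0 were Dcn (0.37), Lum (0.37, above the floor in the knockout only) and Col1a2 (0.09). Pdgfrb, Msln, Wt1, Krt19 and Thy1 were below the floor on both arrays. The part of stromal and mesothelial cells in the Tgfb1, Smad7 and target gene values was not tested. Platelets are known as a rich store of TGF-beta, and stored protein is not measured by RNA signals. The platelet markers Ppbp and Itga2b were not on the array, and the other 4 (Pf4, Gp9, Gp1bb and Gp5) were below the floor on both arrays. Of 5 T and NK cell markers, Cd3d, Cd3e, Cd3g and Cd8a were below it as well, and Cd4 was at 32.8 in knockout cells, below the floor, and 74.5 in wild-type cells, at least 2.05-fold lower. The summed signal of B cell markers (4 of 4 measurable) was 1612 in knockout cells and 1324 in wild-type cells, most of it from Blnk (1377 in knockout cells and 1124 in wild-type cells), while Cd79a was at least 2.75-fold higher and Ms4a1 was 1.67-fold lower. The summed signal of dendritic cell markers (4 of 6) was 1144 in knockout cells and 1163 in wild-type cells, most of it from Itgax (844 in knockout cells and 826 in wild-type cells). For neutrophil markers (5 of 8) the sum was 887 in knockout cells and 956 in wild-type cells. Most of that came from S100a8 (367 in knockout cells and 386 in wild-type cells) and Csf3r (315 in knockout cells and 408 in wild-type cells). Whether macrophages themselves gave the signals of these lists was not tested. For eosinophil and mast cell markers (3 of 6) the sum was 874 in knockout cells and 896 in wild-type cells. The last list had a median log2 ratio of 0.73, with Prg2 at least 2.75-fold higher, Tpsb2 1.66-fold higher and the brighter Hdc 1.36-fold lower. The part of these cells in the members' values was not tested. Dusp2 itself was at 76.8 in knockout cells and 333 in wild-type cells, 23.1% of the wild-type signal. The sources used here do not say which part of the gene the allele alters or whether the Dusp2 probes lie there.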

How the data were processed

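The authors deposited linear intensities, 1 per probe set and array, computed with MAS5 per the submitters' processing notes (no version or settings stated). The labels' protocols describe reverse transcription of 500 to 1000 ng of total RNA primed on the poly(A) tail, so signals weight 3' ends. The deposited 2% trimmed means were equal on the arrays (150.0 on both), and bringing them to a common trimmed mean again left signals as they were. Signals under a floor (36.4, the median signal of the pooled arrays) were set to it before the log2 ratio was taken, and a gene was measurable when at least 1 signal was above it. Where 1 signal was below it, a fold was taken from the brighter signal to the floor and written as "at least". Probe sets were named through the platform's annotation; of 12654, 10276 carried 1 symbol, apart from 66 control probe sets. The brightest probe set by mean signal stood for a gene. Detection calls were not used here, and no test, p-value or standard error was computed, since genes are not replicates. The number of arrays limits the precision. Members and lists were chosen with earlier results of these data known; all members are named, with pathway genes 2-fold apart and the highest and lowest per role that were above the floor on both arrays. Genes 1.5-fold apart, marker genes, promoters and motifs were chosen for printing after values were seen. Other scalings, floors, probe-set rules and a 1.5-fold limit were tried. The ratio calculation was tested on simulated data. Python 3.11.15, numpy 2.4.6, pandas 2.3.3 and statsmodels 0.14.6 were used.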

Additional observations from a re-analysis of the deposited data

How the results depend on the processing

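With 1 array per genotype no value has a replicate check, and no array could be left out. No paired analysis was possible because each genotype has 1 array and the labels carry no replicate numbers. Over the 11 alternatives, the 2-fold counts of members stayed at 0 except with no floor and log2(signal + 1). There, of 8 members, 1 was higher (Smad3, 1.13) and 1 was lower (Tgfbr2, -1.20), both from signals of at most 8.6. Log2 ratios lay between -0.41 and -0.26 for Tgfb1, -0.53 and -0.41 for Smad7, -0.13 and -0.01 for Inhba, -0.20 and -0.02 for Tgfbi, and -0.12 and 0.01 for Eng. Smad7 and Inhba had no value with the floor at the 75th percentile. With the floor at the 25th percentile, 2 of 64 pathway genes were 2-fold higher and 1 was lower. The counts were 5 and 4 of 71 with no floor. At the 1.5-fold limit, 2 of 47 were higher and 1 was lower. Of all 5119 genes, 63 were 2-fold higher and 55 lower. The counts were 476 and 344 of 7128 genes with the floor at the 25th percentile, and 2 and 8 of 2675 at the 75th. With no floor they were 773 and 598 of 8220, and at 1.5-fold 326 and 293 of 5119. With arrays scaled to the same median, 86 were lower and 43 higher. Fold counts thus rest on the floor, and the median scaling moves every ratio down together.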
